A study of Homo sapiens with 6 samples.

Results

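The mitoribosomal protein genes were the 78 rows of the deposited count table, of 32078 named genes, whose symbol is MRPL or MRPS followed by a number and at most one of the letters A, B or C. Of these, 49 carry an MRPL name (large subunit) and 29 an MRPS name (small subunit). The rule leaves out pseudogenes and antisense genes. It also leaves out a few proteins of the same particle that are known by other symbols, which are described separately. The 6 libraries were made from poly(A) RNA of PANC-1, an established human pancreatic cancer cell line. For 3 libraries the treatment label is none (control), and the other 3 are labelled as treated with extracellular vesicles from cancer-associated fibroblasts (EV). One protocol text, which mentions the vesicles, is attached to every library, so titles and treatment labels alone define the groups. The sources used here give neither a vesicle dose nor an exposure time. They do not say whether replicates were separate cultures, and p-values then cover only the spread between these libraries, possibly a technical one.

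Mitochondria carry their own ribosome, which translates the few mRNAs of the mitochondrial genome into core subunits of the respiratory chain and the ATP synthase. Its rRNA is transcribed from mitochondrial DNA, while all its proteins are encoded in the nucleus, made in the cytosol and imported. The particle descends from a bacterial ribosome: some of its proteins have bacterial relatives and others were added in the mitochondrial lineage. Amounts of transcript need not follow amounts of protein or of assembled ribosome, neither of which was measured.

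Libraries held 21669757 to 27535620 counts. Levels are given as CPM (share of a library's counts, on the usual scale of this unit) after scaling with edgeR's TMM factors. Among epithelial markers, KRT8 and KRT18 had means of 1270 CPM or more in both groups, while EPCAM had 0 counts in all 6 libraries, which allows up to 0.138 CPM (3 counts). KRT7 had 1 to 10 counts per library (mean 0.279 CPM in the control and 0.0831 CPM in the EV libraries) and was not tested. Of 5 tested markers of that list 0 rose and 3 fell: KRT19 (-0.48 ± 0.06, adjusted p = 5.78e-06), MUC1 (-1.35 ± 0.11, adjusted p = 1.89e-08) and VIM (-0.37 ± 0.05, adjusted p = 2.54e-05), which encodes an intermediate filament protein of mesenchymal cells. The part of these changes in the results on the members was not tested. Of 12 fibroblast markers listed, 11 were in the table and 4 could be tested. DCN, LUM, POSTN and THY1 had 0 counts in every library. COL1A2 rose (log2 fold change 0.71 ± 0.07, SE, adjusted p = 3.72e-07) and ACTA2 fell (-0.91 ± 0.17, adjusted p = 0.000233). FBLN1 (0.18 ± 0.08, adjusted p = 0.0796) and COL3A1 (0.10 ± 0.09, adjusted p = 0.398) were not called. The summed level of the fibroblast list was 141.2 to 166.5 CPM in the control libraries and 220.9 to 243.6 CPM in the EV libraries, most of it COL1A2, and its part in the results below was not tested.

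Mitoribosomal protein transcripts were higher in the EV libraries in small steps, across both subunits. Of 77 tested members, 44 rose (57.1%) and 2 fell, MRPL10 and MRPL24. Over all 14670 tested genes, 40.9% were called at an adjusted p under 0.05 in edgeR's quasi-likelihood test, 20.2% higher and 20.7% lower. At an adjusted p under 0.01, 30 members were higher and 2 lower, against 13.9% and 14% of all tested genes. The log2 fold change was above 0 for 67 members and for 49.0% of all tested genes. The median log2 fold change of the members was 0.23, a 1.17-fold difference, against -0.01 over all tested genes. Among the 11999 tested protein-coding genes alone, 2830 were called higher (23.6%) and 2427 lower. Of these 11999, 6283 had a log2 fold change above 0, and their median was 0.02. The quartiles of the members were 0.09 and 0.31, and the whole range ran from -0.26 to 0.55. No called member reached 1.5-fold, a bar that 3.67% of all tested genes passed among those called higher. The members' values were tight between replicates: the median coefficient of variation was 5.09% in the control and 5% in the EV libraries. The median SE of a member's log2 fold change was 0.07, against 0.09 over all tested genes.

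**Figure D1:**
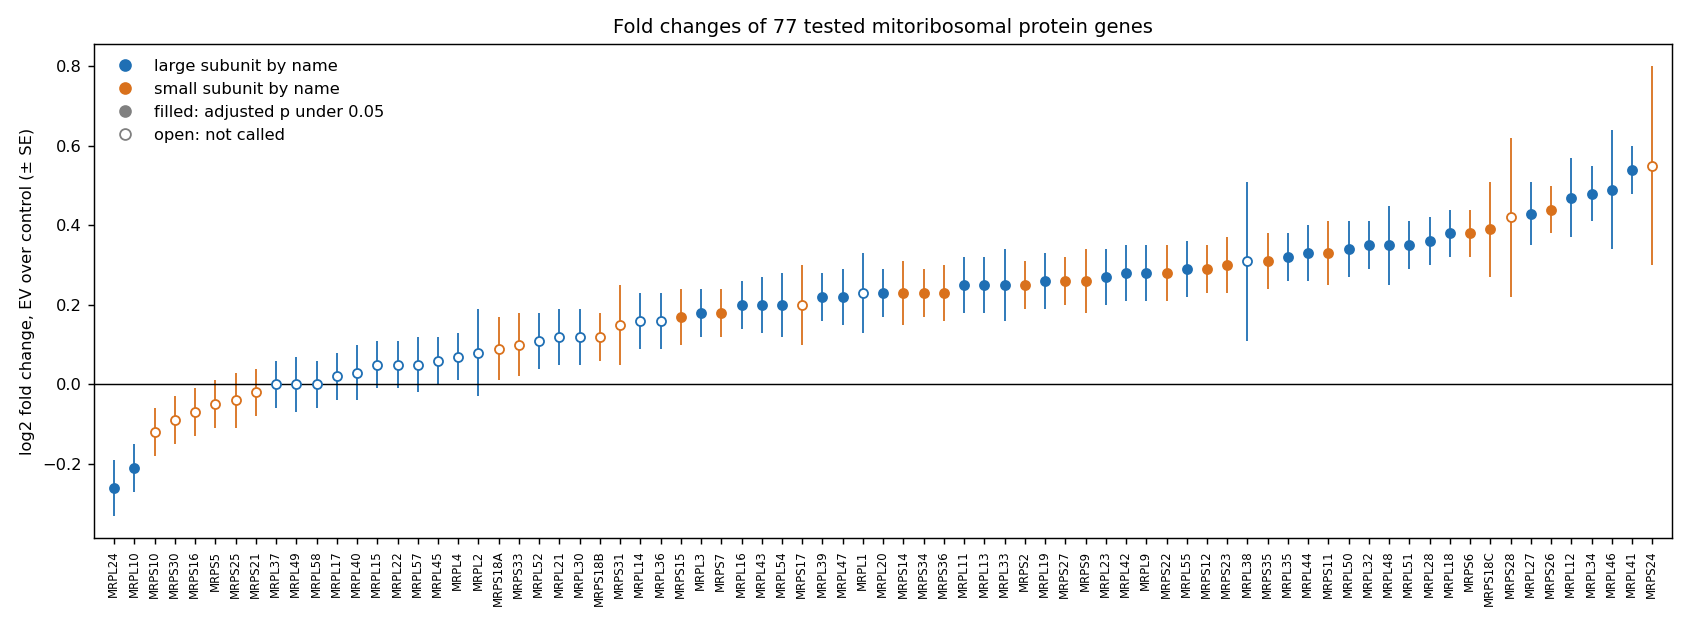
Log2 fold change (EV over control) with its SE for the 77 tested members, ordered by value, with filled points for an adjusted p under 0.05 and colours for the subunit in the name. Points of both colours run along the whole slope, 67 members lie above 0 and 10 below, and the 2 filled points below 0 are MRPL24 and MRPL10.

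Summed over all 78 members, the level was 4917, 5118 and 4989 CPM in the control libraries and 5785, 5706 and 5434 CPM in the EV libraries. The groups did not overlap, and the EV mean was 1.13 times the control mean. The MRPL genes summed to 3116 ± 70 CPM against 3537 ± 137 CPM (mean ± SD, n = 3 each, control first) and the MRPS genes to 1892 ± 32.2 against 2105 ± 47.1 CPM. The ratio of the MRPL sum to the MRPS sum was 1.64, 1.66 and 1.64 in the control libraries and 1.70, 1.69 and 1.65 in the EV libraries, and these ranges overlapped. The libraries of the groups did not overlap, with EV higher, for 48 members (against 25.1% of all tested genes), and did not overlap, with EV lower, for 3 (25.5% of all tested genes).

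By name, 28 of 48 tested MRPL genes rose and 2 fell (median log2 fold change 0.22), and 16 of 29 MRPS genes rose and 0 fell (0.23). Names and structure differ for a few: MRPS18A and MRPS30 are known as proteins of the large subunit, and MRPS36 as a subunit of the 2-oxoglutarate dehydrogenase complex. Grouped by structure, 28 of 50 large subunit genes and 15 of 26 small subunit genes rose. By a naming convention, MRPL numbers to 36 and MRPS numbers to 21 are mostly used for relatives of bacterial proteins. The classes here rest on the number alone and descent was not checked gene by gene, so single genes may be misplaced. Of 44 genes with such numbers 25 rose and 2 fell, with a median of 0.22. Of 33 tested genes with higher numbers 19 rose and 0 fell, with a median of 0.23. The share that rose was 53.8% to 60% in the 4 classes of subunit name and number, and no test of a difference between them was made.

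Among the large subunit genes, MRPL41 (ENSG00000182154), which encodes a protein with no bacterial relative, had the lowest adjusted p of the members. Its level was 123, 130 and 130 CPM in the control libraries and 195, 189 and 174 CPM in the EV libraries. Every EV library stood above every control library, and the log2 fold change was 0.54 ± 0.06 (SE; adjusted p = 1.06e-06). MRPL34 (ENSG00000130312), a relative of a small bacterial large-subunit protein, was at 46.5, 51.7 and 47.4 CPM against 73.4, 66.0 and 63.3 CPM. It also rose without overlap (0.48 ± 0.07, adjusted p = 2.66e-05). MRPL28 (ENSG00000086504) was at 128, 133 and 122 CPM against 170, 161 and 162 CPM, and rose by 0.36 ± 0.06 (adjusted p = 6.55e-05). Of its transcript, 13.1% is shared with TMEM8A on the same strand. MRPL27 (ENSG00000108826), whose bacterial relative lies near the peptidyl transferase centre, was at 20.5, 21.2 and 18.8 CPM against 28.7, 26.6 and 26.2 CPM, and rose 1.35-fold.

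**Figure D2:**
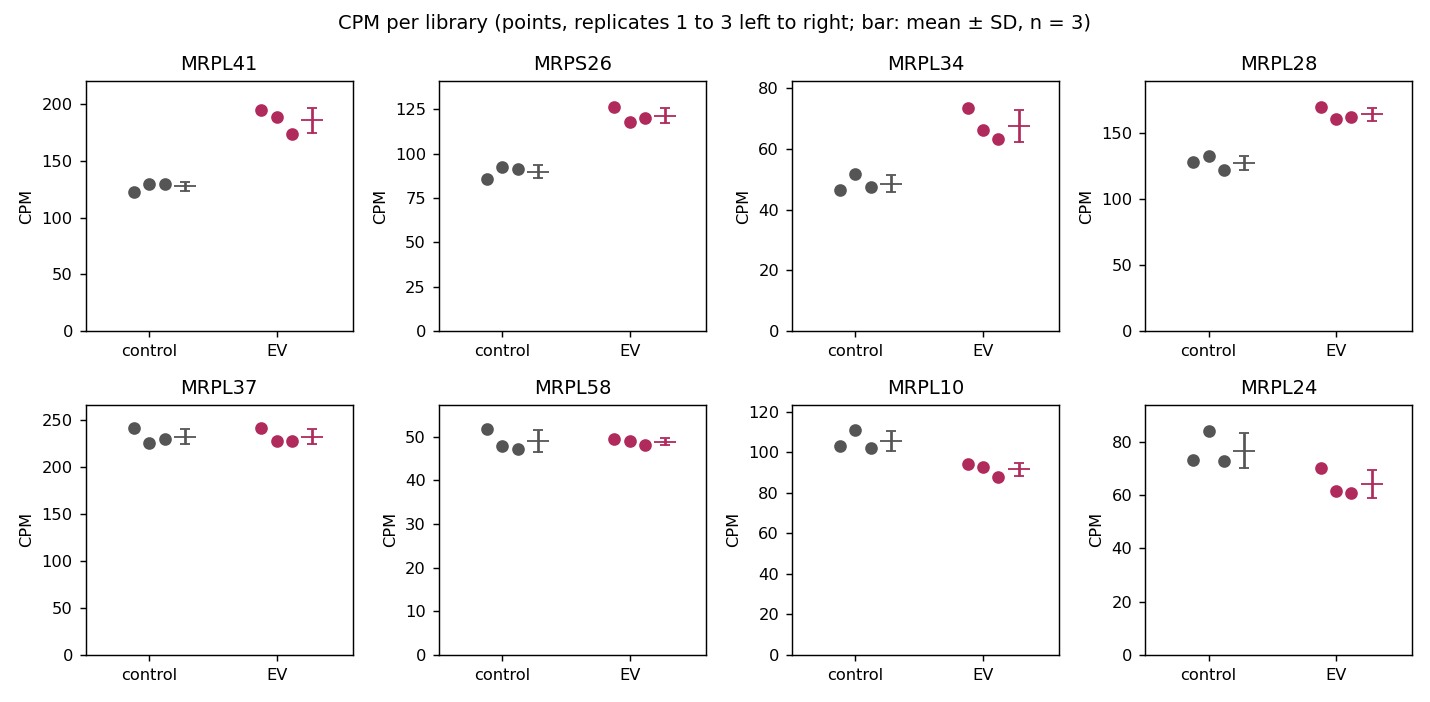
CPM in each library (points, with mean ± SD beside them, n = 3 per group) for 8 members, each panel with its own axis from 0. In MRPL41, MRPS26, MRPL34 and MRPL28 all EV points lie above all control points, in MRPL10 and MRPL24 all lie below, and in MRPL37 and MRPL58 they overlap.

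The stalk of the large subunit, which recruits translation factors, had members that moved in opposite directions. MRPL10 (ENSG00000159111), the protein that anchors the stalk, was at 103, 111 and 102 CPM in the control libraries and 94.0, 92.6 and 87.8 CPM in the EV libraries. It fell without overlap (-0.21 ± 0.06, adjusted p = 0.00965), a call that needed EV replicate 3 (-0.17 when left out, adjusted p = 0.0635). MRPL12 (ENSG00000262814), the stalk protein itself, also known to bind the mitochondrial RNA polymerase, was at 14.1, 15.9 and 19.1 CPM against 24.9, 21.7 and 21.7 CPM. All EV libraries were above all controls, and it rose by 0.47 ± 0.10 (adjusted p = 0.0011), but 68.2% of its transcript is shared with another gene. MRPL11 (ENSG00000174547), at the base of the stalk and named here after its values were seen, was at 95.0, 108 and 103 CPM against 128, 129 and 108 CPM. Its groups met at 108 CPM, and it rose by 0.25 ± 0.07 (adjusted p = 0.00853), a call lost without EV replicate 2 (0.21, adjusted p = 0.0579). The difference between these genes was not tested.

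MRPL24 (ENSG00000143314), whose bacterial relative binds the rRNA early in assembly of the large subunit, was the other member that fell. Its level was 73.0, 84.1 and 72.8 CPM in the control libraries and 70.1, 61.6 and 60.7 CPM in the EV libraries. The groups were separated by a narrow gap, with control replicate 2 the highest (-0.26 ± 0.07, adjusted p = 0.00839). It no longer passed when control replicate 2 (-0.18, adjusted p = 0.0556), EV replicate 2 (-0.23, 0.0515) or EV replicate 3 (-0.21, 0.059) was left out. Of the members, 0 were called lower without EV replicate 3 (against 16.7% of all tested genes). Only 1 was called lower without EV replicate 2 (16.1%) or without control replicate 2 (18.0%).

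Other large subunit genes were not called. MRPL37 (ENSG00000116221), a protein with no bacterial relative, had the highest level per length of the members, 157 CPM per kb of transcript over the 6 libraries. It was at 241, 225 and 230 CPM against 241, 227 and 228 CPM, and the groups overlapped (0.00 ± 0.06, adjusted p = 0.997). MRPL58 (ENSG00000167862), a peptidyl-tRNA hydrolase that frees stalled ribosomes and is also built into the large subunit, was at 51.8, 47.8 and 47.1 CPM against 49.5, 49.0 and 48.0 CPM. Its fitted difference was also near 0 (adjusted p = 0.989), with a sign that depends on the scaling. MRPS30 (ENSG00000112996), which sits in the large subunit despite its name, was at 127, 137 and 127 CPM against 122, 119 and 125 CPM. Its groups did not overlap, with EV lower, but the difference was not called (-0.09 ± 0.06, adjusted p = 0.204).

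Among the small subunit genes, MRPS26 (ENSG00000125901), a protein with no bacterial relative, had the lowest adjusted p. It was at 85.8, 92.5 and 91.1 CPM in the control libraries and 126, 118 and 120 CPM in the EV libraries. The gap between the groups was wide against the spread within them (0.44 ± 0.06, adjusted p = 1.14e-05). MRPS12 (ENSG00000128626), the relative of the bacterial protein at the decoding centre, was at 84.4, 91.2 and 85.6 CPM against 108, 108 and 102 CPM. It rose by 0.29 ± 0.06 (adjusted p = 0.000843). MRPS27 (ENSG00000113048), an RNA-binding pentatricopeptide repeat protein, was at 149, 137 and 138 CPM against 169, 169 and 170 CPM, and rose 1.20-fold with EV libraries that were nearly equal. MRPS10, a relative of a protein of the bacterial small subunit head, was at 120 ± 5.66 against 110 ± 6.11 CPM (mean ± SD, n = 3 each), with overlapping groups, and was not called (-0.12 ± 0.06, adjusted p = 0.123).

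The 3 human relatives of bacterial S18, which take different places in the particle, differed in their calls. MRPS18C (ENSG00000163319) was at 7.20, 8.30 and 7.0 CPM against 9.24, 9.40 and 10.8 CPM. Its groups did not overlap, and it rose by 0.39 ± 0.12 (adjusted p = 0.0112), a call lost without EV replicate 3 (0.32, adjusted p = 0.0646). MRPS18B was at 79.8 ± 2.03 against 86.5 ± 2.57 CPM and MRPS18A at 31.1 ± 2.44 against 33.2 ± 1.95 CPM (mean ± SD, n = 3 each). Neither was called, at 0.12 ± 0.06 (adjusted p = 0.118) and 0.09 ± 0.08 (adjusted p = 0.362). A difference between the 3 genes was not tested. MRPS36 (ENSG00000134056), the gene whose product is known from 2-oxoglutarate dehydrogenase, was at 24.2, 25.3 and 23.8 CPM against 28.8, 28.4 and 28.9 CPM and rose by 0.23 ± 0.07 (adjusted p = 0.0163).

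Some calls lay close to the threshold, while 30 of the 44 members called higher had an adjusted p under 0.01. Leaving out 1 library moved some calls. With each library left out in turn, 34 to 44 members were called higher, against 15.6% to 18.9% of all tested genes, a share that was 20.2% with all 6 libraries. MRPS15, whose bacterial relative binds the small subunit rRNA, was at 96.8, 108 and 101 CPM against 118, 122 and 105 CPM, with overlapping groups (0.17 ± 0.07, adjusted p = 0.0429). MRPS7, a relative of a protein of the bacterial small subunit head, was at 81.2, 80.6 and 80.5 CPM against 93.7, 92.1 and 87.8 CPM, with no overlap (0.18 ± 0.06, adjusted p = 0.0209). MRPL3, whose bacterial relative lies by the peptidyl transferase centre, was at 157, 161 and 169 CPM against 182, 195 and 174 CPM, also with no overlap (0.18 ± 0.06, adjusted p = 0.0237). Of these 3 genes, the groups of 2 were separate. MRPL43, with no bacterial relative, was at 60.7, 61.2 and 54.1 CPM against 69.4, 70.5 and 61.6 CPM (0.20 ± 0.07, adjusted p = 0.0312), without overlap. MRPL54, with no bacterial relative, was at 21.9, 23.0 and 23.9 CPM against 27.0, 25.6 and 26.3 CPM, without overlap. At 0.20 ± 0.08 it was the called member nearest the threshold (adjusted p = 0.0458). MRPL16, a relative of a bacterial large subunit protein, also rose by 0.20 (± 0.06, adjusted p = 0.00936).

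MRPS15 was not called without control replicate 1 (adjusted p = 0.145), control replicate 3 (0.0795), EV replicate 1 (0.121) or EV replicate 2 (0.195). MRPL43 was not called without control replicate 3 (adjusted p = 0.137), EV replicate 1 (0.0961) or EV replicate 2 (0.134). MRPL3 was not called without control replicate 1 (adjusted p = 0.0805), control replicate 2 (0.051) or EV replicate 2 (0.145), and MRPS7 not without EV replicate 1 (0.0682) or EV replicate 2 (0.0707). MRPL54 was not called without control replicate 1 (adjusted p = 0.136), control replicate 2 (0.0811), EV replicate 1 (0.113), EV replicate 2 (0.0705) or EV replicate 3 (0.094). Other settings ended some of these calls too. With upper-quartile scaling MRPL54 (adjusted p = 0.0754), MRPS15 (0.0751) and MRPL43 (0.0506) were not called, and with a filter of 1 CPM in 3 libraries MRPL54 (0.0527) and MRPS15 (0.0521) were not. MRPL54 was also not called with DESeq2 (adjusted p = 0.064), with no count filter (0.0687) or with the replicate number as a block (0.0696). On the other side of the threshold stood MRPL1 (0.23 ± 0.10, adjusted p = 0.0562), MRPL14 (0.16 ± 0.07, adjusted p = 0.0668) and MRPL36 (0.16 ± 0.07, adjusted p = 0.0668). Without EV replicate 3 these were called (adjusted p = 0.0193, 0.0481 and 0.0283), and without control replicate 2 MRPL14 (0.0318) and MRPL36 (0.0295) were too. MRPL1 was also called with library totals alone (adjusted p = 0.0488) and with no count filter (0.047).

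The level per length differed widely between members, and overlap between gene models was set beside it. The level was 54.3 CPM per kb of transcript at the median of the members with counts, using 1 transcript per gene from GENCODE v29, an annotation of another genome build than the one in the submitters' processing notes. In that annotation, 6 members share at least 50% of their transcript with 1 other gene on the same strand, mostly read-through models. MRPS24 shares 85.7% with URGCP-MRPS24, MRPL46 shares 71.1%, MRPL12 68.2%, MRPL38 67.8%, MRPS28 55.4% and MRPL53 52.3% with CCDC142. Their levels were 0 to 19.0 CPM per kb, against 2.68 to 157 CPM per kb (median 55.2) for the 72 other members, so the ranges overlapped. MRPL42, with 1.81% shared and a transcript of 15582 bases, was at 2.68 CPM per kb, and MRPS18C, with none shared, at 5.27 CPM per kb. MRPL53 had 0 counts in all 6 libraries and was the only member not tested. The sources used here do not say how reads in shared exons were counted, and the part of the overlap in these levels was not tested.

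Fold changes of these members carried wide errors. MRPS24 was at 1.20, 0.841 and 0.990 CPM in the control libraries and 1.74, 1.38 and 1.29 CPM in the EV libraries, without overlap, and at 0.55 ± 0.25 was not called (adjusted p = 0.0918). MRPL46, at 3.13, 3.44 and 4.0 CPM against 5.25, 4.58 and 5.06 CPM, rose by 0.49 ± 0.15 (adjusted p = 0.011). MRPL38 (0.31 ± 0.20, adjusted p = 0.222) and MRPS28 (0.42 ± 0.20, adjusted p = 0.096) were not called. Among the 47 tested members with no exon overlap on either strand 25 rose and 2 fell, with a median of 0.20. Of the MRPL and MRPS rows outside the rule, MRPL20-AS1, antisense to MRPL20, fell from 31.1, 32.3 and 28 CPM to 23.1, 19.9 and 23.3 CPM (-0.46 ± 0.08, adjusted p = 0.000272), while MRPL20 rose by 0.23 ± 0.06 (adjusted p = 0.0037). Whether reads were assigned by strand is not stated, so reads of an antisense pair may not be told apart.

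**Figure D3:**
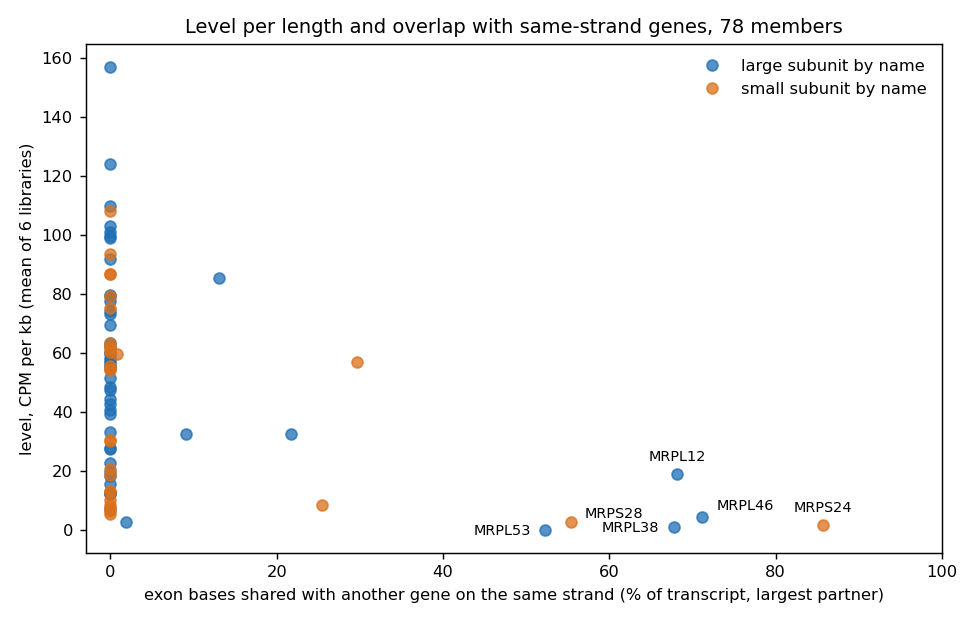
Level of each of the 78 members (CPM per kb of transcript, mean of 6 libraries) against the largest share of its transcript, in percent, that lies in exons of another gene on the same strand. The 6 labelled members at 50% or more sit between 0 and 19.0 CPM per kb, while those at 0% reach 157 CPM per kb.

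Length and GC content of the transcripts were not used by the rule. The members' transcripts were shorter, with a median of 1462 bases against 2821 bases over all tested genes with a length. Their median GC content of 48.9% was near the 49.6% over all tested genes with a value. A correction of each library for GC content and length raised the number of members called higher to 53 and left 1 called lower, and over all genes it gave 27.3% higher and 18.6% lower. MRPS36 lost its call under it (adjusted p = 0.077), as did MRPL10 (adjusted p = 0.0581), while MRPL14, MRPL36, MRPS18A and MRPS18B were called higher.

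Promoters of nuclear genes for mitochondrial proteins are known for sites of NRF1, of ETS factors such as GABPA, and of YY1. RefSeq promoters on GRCh38.p14, 250 bases before to 50 after the start, matched 69 of the 78 members by symbol. MRPL2, MRPL10, MRPL13, MRPL15, MRPL21, MRPL23, MRPL35, MRPS28 and MRPS36 had none there. On either strand, the ETS core CCGGAAG was in 42.0% of the members' promoters, 19.7% of 10291 promoters of tested genes and 10.7% of all 27305 promoters in the table. The YY1 core ATGGCGG was in 34.8%, 10.8% and 5.72%. The NRF1 motif, GCGCA and GCGC with any base between them, was in 11.6%, 12.2% and 6.28%, and the E-box CACGTG, which MYC can bind, in 8.70%, 10.3% and 7.43%. An ETS or YY1 core was in 46 member promoters and both in 7, with overlapping matches counted for each motif. A match is a run of letters and shows no binding.

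The ETS core was about as frequent among the 40 members called higher (42.5%) as among the 29 others with a promoter (41.4%). The YY1 core was in 30.0% and 41.4%, the NRF1 motif in 1 of 40 and 7 of 29, and the E-box in 1 of 40 and 5 of 29. None of these differences was tested. The 150 bases before the start are printed for the 3 members with the lowest adjusted p, for MRPS34, which rose (0.23 ± 0.06) and holds several ETS cores, and for MRPL24, which fell. Each is the gene's own strand, 5′ to 3′, with ETS cores (or their reverse complement CTTCCGG) in capitals. In these stretches MRPS26 holds 1 core and MRPS34 holds 3, and none of the 4 motifs is in the other 3.
MRPL41 (GRCh38.p14, chr9:137551729-137551878, plus strand): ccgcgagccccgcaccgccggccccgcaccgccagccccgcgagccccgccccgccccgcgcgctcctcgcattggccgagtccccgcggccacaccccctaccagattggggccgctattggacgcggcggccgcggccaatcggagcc
MRPS26 (GRCh38.p14, chr20:3045902-3046051, plus strand): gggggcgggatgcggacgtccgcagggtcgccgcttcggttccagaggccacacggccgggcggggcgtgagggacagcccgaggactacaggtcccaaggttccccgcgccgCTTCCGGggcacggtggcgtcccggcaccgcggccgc
MRPL34 (GRCh38.p14, chr19:17292423-17292572, plus strand): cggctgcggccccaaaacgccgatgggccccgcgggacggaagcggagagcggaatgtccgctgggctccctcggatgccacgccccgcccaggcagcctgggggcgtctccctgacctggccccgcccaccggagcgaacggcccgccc
MRPS34 (GRCh38.p14, chr16:1773135-1773284, minus strand): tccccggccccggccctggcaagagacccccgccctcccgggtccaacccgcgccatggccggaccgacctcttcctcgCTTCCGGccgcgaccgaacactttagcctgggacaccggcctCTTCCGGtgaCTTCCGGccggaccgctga
MRPL24 (GRCh38.p14, chr1:156741089-156741238, minus strand): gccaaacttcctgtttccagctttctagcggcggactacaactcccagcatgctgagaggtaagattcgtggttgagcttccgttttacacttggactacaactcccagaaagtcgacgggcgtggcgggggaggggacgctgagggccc

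**Figure D4:**
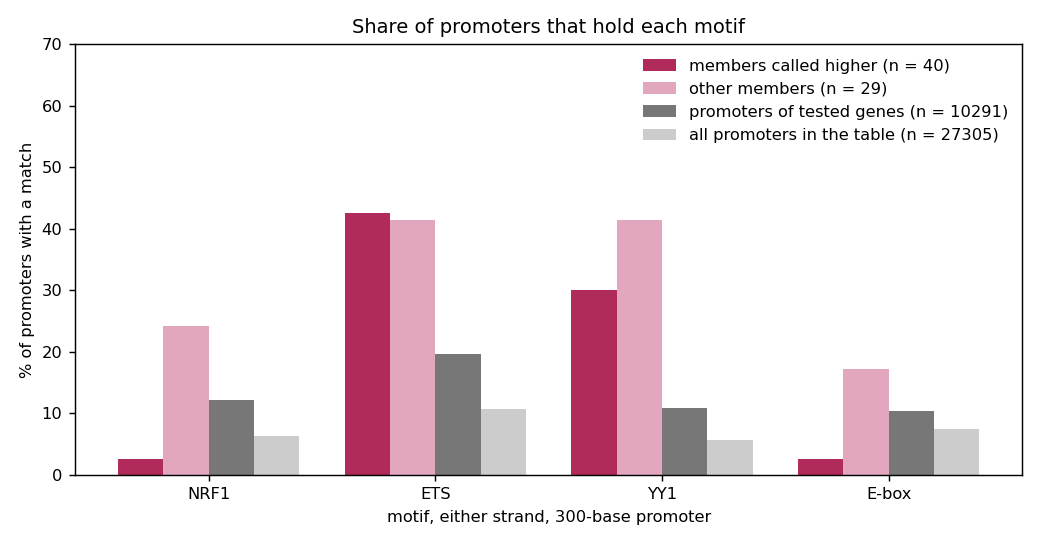
Percent of 300-base promoters with at least 1 match to each motif on either strand, for members called higher, other members, promoters of tested genes and all promoters in the table. The ETS bars of both member groups stand near 42%, above the 19.7% of tested genes, and the NRF1 bar of the members called higher is at 2.50%.

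The factors themselves did not move as one. NRF1, an activator of nuclear genes for mitochondria, rose from 21.3 ± 1.11 to 26.9 ± 1.56 CPM (mean ± SD, n = 3 each; log2 fold change 0.33 ± 0.08, adjusted p = 0.00261). PPARGC1B, a coactivator of the same genes, rose by 0.44 ± 0.10 (adjusted p = 0.00161), and its relative PPARGC1A had 0 counts in all 6 libraries. MYC fell from 419 ± 13.2 to 293 ± 16.2 CPM. GABPA (0.12 ± 0.07, adjusted p = 0.198), YY1 (0.04 ± 0.06, adjusted p = 0.629) and the coactivator PPRC1 (-0.13 ± 0.07, adjusted p = 0.105) were not called.

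Proteins of the particle that carry other symbols had 5 genes in the table, of which 2 rose and 0 fell (20.2% and 20.7% of all tested genes). GADD45GIP1, a large subunit protein, was at 0.28 ± 0.06 (adjusted p = 0.000622) and CHCHD1, of the small subunit, at 0.24 ± 0.06 (adjusted p = 0.00596). DAP3, the GTP-binding protein of the small subunit, was at 160 ± 2.88 against 146 ± 2.80 CPM (mean ± SD, n = 3 each), with groups that did not overlap, and was not called (-0.13 ± 0.06, adjusted p = 0.0582). Factors that build the particle and modify its rRNA rose in 9 of 28 (32.1%, against 20.2% of all tested genes) and fell in 2. MPV17L2 (0.50 ± 0.07), FASTKD2 (0.41 ± 0.07) and MALSU1 (0.39 ± 0.06), which act in large subunit assembly or rRNA stability, rose, and the rRNA methyltransferase NSUN4 (-0.37 ± 0.07) and the endonuclease YBEY (-0.37 ± 0.10) fell. YBEY was not called without control replicate 2 (-0.26, adjusted p = 0.0601).

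Of 17 mitochondrial translation factors tested, 5 rose (29.4%, against 20.2% of all tested genes) and 0 fell. They included OXA1L, which inserts new proteins into the inner membrane (0.31 ± 0.06, adjusted p = 0.000202), the mRNA-stabilising SLIRP (0.34 ± 0.07, adjusted p = 0.000365) and the elongation factor GFM1 (0.33 ± 0.06, adjusted p = 0.000493). TUFM, the elongation factor that brings charged tRNAs to the mitoribosome, was at 618 ± 7.74 against 629 ± 16.7 CPM and was not called (0.02 ± 0.05, adjusted p = 0.75). A list of synthetases that charge mitochondrial tRNAs also held the amidotransferase subunits QRSL1, GATB and GATC. Its genes rose in 4 of 19 (21.1%, near the 20.2% over all genes) and fell in 0. Those that rose were the synthetases LARS2 (0.36 ± 0.07), YARS2 (0.35 ± 0.07) and MARS2 (0.34 ± 0.08), and QRSL1 (0.38 ± 0.10).

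A list of genes that transcribe or maintain mitochondrial DNA or process its RNA rose in 9 of 15 (60%, against 20.2% of all tested genes). Of those acting on the DNA or its transcription, TFAM, TFB2M, TEFM and MGME1 rose. POLRMT, POLG, POLG2, TWNK and SSBP1 were not called. The others that rose, ELAC2, HSD17B10, PRORP, TRMT10C and PNPT1, act on the RNA. TFAM, which packages this DNA and starts its transcription, was at 61.5, 56.4 and 66.8 CPM in the control libraries and 86.3, 91.6 and 88.8 CPM in the EV libraries. It rose without overlap (0.53 ± 0.07, adjusted p = 4.78e-06), as did TRMT10C, a subunit of mitochondrial RNase P (0.57 ± 0.08, adjusted p = 1.36e-05), and the RNA-processing PNPT1 (0.34 ± 0.07). The mitochondrial RNA polymerase gene POLRMT was not called (0.02 ± 0.06, adjusted p = 0.792). The helicase gene SUPV3L1 was the only member of the list that fell (-0.18 ± 0.06, adjusted p = 0.0156), and it was no longer called without EV replicate 1 (adjusted p = 0.0533), EV replicate 2 (0.0593) or EV replicate 3 (0.0501).

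Of the 13 mRNAs that the mitoribosome translates, 2 rose (15.4%, under the 20.2% over all genes) and 1 fell, with a median log2 fold change of -0.01. Their summed level was 8097, 7498 and 10580 CPM in the control libraries and 10400, 8695 and 7423 CPM in the EV libraries, and the groups overlapped. MT-ND3 (0.56 ± 0.07, adjusted p = 8.43e-06) and MT-ND2 (0.34 ± 0.09, adjusted p = 0.00507) rose and MT-ND6 fell (-0.35 ± 0.11, adjusted p = 0.018). The libraries of the groups were separate for MT-ND3 and overlapped for MT-ND2 and MT-ND6. MT-ND3 and MT-ND2 stayed called with each library left out (highest adjusted p 0.000168 and 0.0412). MT-ND6 was not called without control replicate 3 (adjusted p = 0.172), EV replicate 2 (0.0891) or EV replicate 3 (0.102). The counts over the 13 genes also moved. Without control replicate 3, 5 were higher and 0 lower (18.9% of all tested genes in each direction). Without control replicate 2, 4 were lower (18.0% of all tested genes), and without EV replicate 1, 3 were lower (17.2%). Without EV replicate 2 or EV replicate 3, 0 were lower (16.1% and 16.7% of all tested genes).

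Cytosolic ribosomal protein genes rose in 32 of 80 tested (40.0%, against 20.2% of all tested genes) and fell in 2, with a median log2 fold change of 0.10. Their summed level overlapped between the groups, at 64170 to 68560 CPM against 63770 to 71460 CPM. RPS21 (0.33 ± 0.05), RPL31 (0.33 ± 0.07) and RPL23 (0.29 ± 0.06) had the lowest adjusted p among those that rose, and RPL12 (-0.27 ± 0.07) and RPLP1 (-0.19 ± 0.07) fell. The count of higher genes was 19 without EV replicate 1 (against 17.5% of all tested genes), 17 without EV replicate 2 (15.6%) and 18 without control replicate 1 (18.0%). The lower genes numbered 4 without control replicate 3 (against 18.9% of all tested genes). They numbered 1 without control replicate 1 (18.4%), control replicate 2 (18.0%), EV replicate 2 (16.1%) or EV replicate 3 (16.7%). The difference between the cytosolic and the mitochondrial set was not tested.

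**Figure D5:**
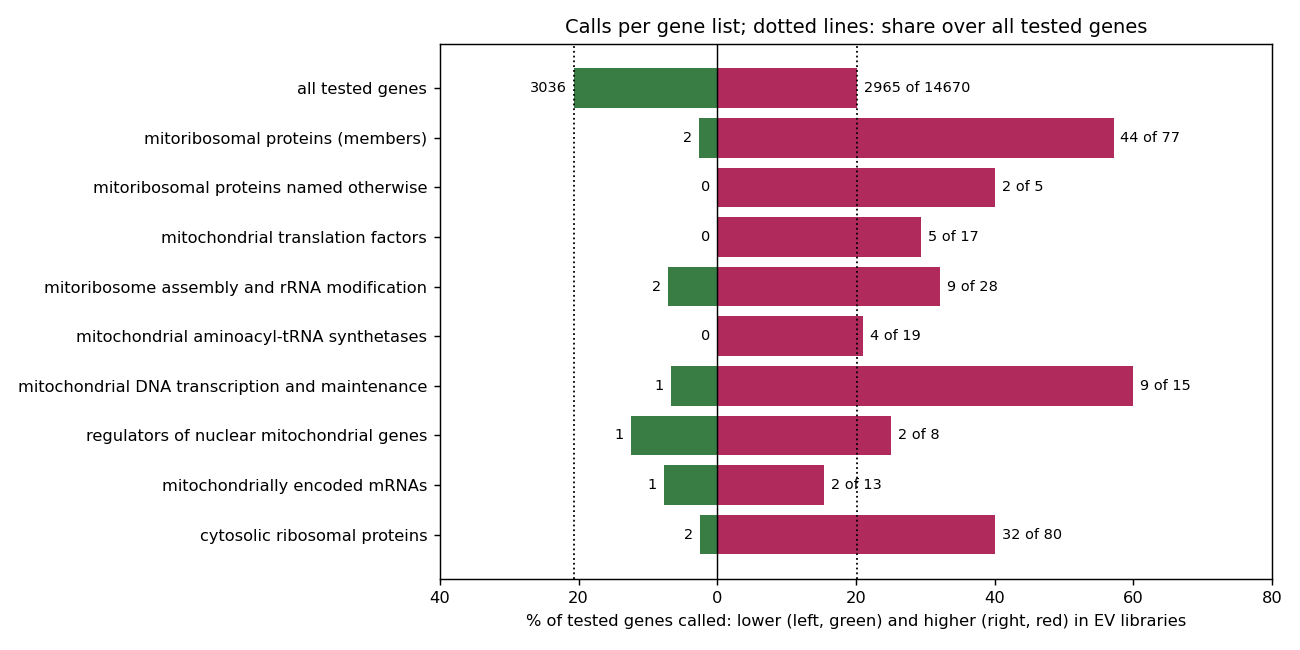
Percent of the tested genes of each list that were called higher (right) or lower (left) in the EV libraries, with counts, and dotted lines at the shares over all 14670 tested genes. The members stand at 57.1% higher and the mitochondrial DNA list, which also holds genes that process its RNA, at 60%. The mitochondrially encoded mRNAs stand at 15.4%, under the dotted line at 20.2%.

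In the authors' deposited table, whose fold changes are control over EV, 77 members are listed. By the q-values of the authors' deposited table, the EV group is higher for 44 members at a q under 0.05 and lower for 2, and 0 are marked up or down. For MRPL41 the authors' deposited table lists -0.56 on its log2 scale. That table rests on the same libraries and is no independent support.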

How the data were processed

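Poly(A) RNA of 6 libraries (3 control, 3 EV) was sequenced in pairs of reads. TopHat, RSEM and hg19 are named in the submitters' processing notes, with no versions or roles. The sources used here do not give the annotation release or say whether the strand-marked libraries were counted by strand. The authors deposited raw counts per gene for 32453 features. Unnamed assembled loci (375, 0.099% to 0.134% of a library's counts) were left out. The authors also deposited a table with log2 group means, log2 fold changes, p-values and q-values.

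The test on the counts was edgeR's quasi-likelihood test (version 4.0.16, R 4.3.3, TMM factors, filterByExpr) over all genes, with Benjamini-Hochberg adjustment, and it is the source of every adjusted p-value printed without another tool's name. Fold changes are EV over control (prior count 0.125), and the SE is the log2 fold change divided by the square root of F. A count of 0 allows up to 3 counts, 0.11 to 0.138 CPM, for counting error only. No 2 libraries of a group agreed within sampling noise. In simulated counts for 14670 genes, the test recovered 50% of 1.25-fold changes, 72% of 1.5-fold and 88% of 2-fold changes (50 genes each). It made 8 false calls among 14470 unchanged genes. The changed genes were few and drawn from all tested genes, while 40.9% of tested genes were called in the data. The members also had a smaller median SE of the log2 fold change (0.07, against 0.09 over all tested genes). These shares therefore do not give the share of changes recovered among the members. Changes as small as the members' median of 1.17-fold were not simulated, so a member not called may still differ.

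Members and lists were chosen with earlier results of these data known. Named members are the called ones at both ends of the fold changes (6 each), the 4 of lowest adjusted p per direction, 3 on each side of the threshold, the untested member, the extremes of level per length, 10 of known role, and in each list up to 3 called genes per direction. DAP3, YY1, MRPL16, MRPL42, MRPS10, MRPS28, MRPS34, MRPL11 and MRPL20 were named after their values were seen. Alternatives were 3 other scalings, 2 other filters, DESeq2 1.42.0, limma-voom (limma 3.58.1), a replicate block, each library left out, and an adjusted p under 0.01. The correction for GC content and length (loess, span 0.4, with values for 99.26% of tested genes) and keeping unnamed loci were added after the data were seen.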

Additional observations from a re-analysis of the deposited data

How the results depend on the processing

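Under the alternatives run, 30 to 53 members were called higher and 0 to 2 lower. Left out in turn, the libraries gave 34 to 44 higher and 0 to 2 lower, and the correction for GC content and length gave 53 higher and 1 lower. At an adjusted p under 0.01 the counts were 30 and 2. The replicate block gave 43 higher and 2 lower, against 44 and 2 without it. Same-numbered libraries did not deviate together (correlations of -0.021, -0.009 and -0.011, against -0.064 to 0.074 for the other pairs). With 3 libraries per group, these values cannot show whether a number marks a shared culture. Signs near 0 turned for 3 of the named genes that were followed one by one through the alternatives. MRPL58 was at 0.01 with DESeq2, library totals alone and no count filter, 0.00 with limma-voom, median-ratio scaling, the replicate block and unnamed loci kept, 0.07 after the GC content and length correction, and -0.03 to 0.04 with 1 library left out, above 0 without EV replicate 3 (0.02) and control replicate 1 (0.04). MRPL37 was at -0.01 with a filter of 1 CPM in 3 libraries, -0.02 with upper-quartile scaling, and -0.02 to 0.03 with 1 library left out, below 0 without EV replicate 1, control replicate 2 or control replicate 3. POLRMT ranged from -0.00 (without EV replicate 3) to 0.05. Cytosolic ribosomal protein genes called higher numbered 16 at an adjusted p under 0.01 (13.9% of all tested genes), against 32. After the GC content and length correction, 7 genes of the synthetase list, amidotransferase subunits included, were higher against 4. Of the mitoribosomal proteins with other symbols, 4 were higher against 2. Over all genes 27.3% were higher and 18.6% lower after it, against 20.2% and 20.7%. Of the mitochondrially encoded mRNAs, 4 were lower with no count filter (10.6% of all tested genes) against 1. With DESeq2, 1 was higher against 2 and 0 were lower (17.6% and 15.0% of all tested genes). The cause of these changes was not tested. Depth limits the members with few counts: MRPS24, with 23 to 47 counts per library, had an SE of the log2 fold change of 0.25.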
